A study of Macaca fascicularis with 22 samples.

Results

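Oxidative phosphorylation subunits are the nuclear-encoded proteins of complexes I to V of the mitochondrial inner membrane. They were chosen here as the array probes that carry 1 of 60 human RefSeq identifiers on a list of such subunits. Of the 60 identifiers 44 were on the array, out of 19376 identifiers in all, and they were measured by 45 probes because ATP5E (NM_006886) had a pair. Complex I was covered by 23 of 30 listed subunits, complex II by 3 of 4, complex III by 4 of 6, complex IV by 7 of 12 and complex V by 7 of 8. The 16 identifiers absent from the array included SDHC, UQCRFS1, COX4I1, COX6A1 and COX7A2, so the widely expressed partners of the muscle isoforms COX6A2 and COX7A1 could not be set beside them. The files give identifiers without gene names. For 10 members (NDUFB1, NDUFB4, NDUFB6, NDUFC1, NDUFV2, NDUFV3, SDHD, COX7B, ATP5C1 and ATP5F1) the study pairs the identifier with a symbol. The other symbols are the names under which the identifiers are generally known, given beside the identifier without a table to check them against, and the same holds for most marker and pathway genes named here.

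Total RNA came from neonatal cynomolgus macaques, Macaca fascicularis, in a pair of birth weight groups, whose sample titles call the average group control and the lower group treated. Low birth weight (LBW) covered the 5th to the 25th centile and average birth weight (ABW) the 50th to the 75th, both within the normal range and with no experimental treatment. Each group had 4 arrays of skeletal muscle (biceps femoris by the study's methods), 4 labelled umbilical cord and 3 labelled liver, 22 single-colour arrays in all. By the labels the tissues were taken at birth, while the study's methods place liver and muscle some days later. No source used here ties an array to an animal, so arrays of different labels may come from the same one, and the p-values measure the spread between these arrays. The array was designed on the rhesus macaque.

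In oxidative phosphorylation, complex I takes electrons from NADH and complex II from succinate, complex III passes them to cytochrome c, and complex IV passes them to oxygen. Complexes I, III and IV move protons out of the matrix, and complex V, the ATP synthase, makes ATP as the protons return. Complex II is at the same time the succinate dehydrogenase of the citric acid cycle. Skeletal and heart muscle use tissue-specific isoforms of some complex IV subunits, and the number of mitochondria differs widely between tissues. In whole tissue, fewer cells of a type and less RNA per cell cannot be told apart.

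All values are levels on the log2 scale relative to the 75th percentile of the array, so that 0 is the signal of that percentile. The percentile itself lay between 315.5 and 2390.0 intensity units, both of these on arrays labelled umbilical cord. The arrays lay on 6 slides, and skeletal muscle ABW and LBW each had a slide of their own, so in muscle the slide cannot be told apart from birth weight. The labels of liver and umbilical cord went against their markers. Of 10 hepatocyte genes 6, albumin and APOA1 among them, were well above background on none of the 6 arrays labelled liver, while the summed level of the 10 was 9.15 to 10.15 on the arrays labelled umbilical cord and -3.62 to -1.86 on those labelled liver. The summed level of 7 stromal genes was 8.75 to 9.17 on the arrays labelled liver and 3.24 to 4.66 on those labelled umbilical cord. The arrays are therefore named by their labels only. All 45 member probes passed the filter on dim probes, and 43 were well above background on all 22 arrays. The exceptions were NDUFA4 (NM_002489) and NDUFS1 (NM_005006).

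The subunits stood highest in skeletal muscle, intermediate under the label umbilical cord and lowest under the label liver. The median level of the 45 probes was 3.65 to 4.26 on the 8 muscle arrays, 2.53 to 3.39 on the 8 umbilical cord arrays and 1.496 to 1.89 on the 6 liver arrays, named by label, with no overlap between labels. The mean levels followed this order at 42 of the 45 probes, against 19.8% of all 17117 probes tested. By limma at an adjusted p under 0.05, 42 member probes were higher in muscle than on the arrays labelled liver and 0 lower (37.1% of all probes higher, 28.1% lower). Against the arrays labelled umbilical cord 36 were higher in muscle and 0 lower (35.8% and 29.1% of all probes). On the arrays labelled umbilical cord 37 were higher than on those labelled liver and 1 lower (35.6% and 31.3%). The single arrays did not overlap at 41, 24 and 27 member probes in these comparisons, against 23.4%, 17.9% and 18.7% of all probes higher without overlap. The median difference of the members was 2.41 for muscle minus the label liver, 1.17 for muscle minus umbilical cord and 1.30 for umbilical cord minus liver, where all probes had medians of 0.21, 0.11 and 0.13. Scaling to spike-in controls moved the median of all probes to -0.52, -1.18 and 0.70. On that scale 27 and 30 members were still called higher in muscle and on the arrays labelled umbilical cord than on those labelled liver. Of all 17117 probes 1445 and 4841 were called higher in these comparisons. Between muscle and umbilical cord, however, COX6A2 and COX7A1 were called higher in muscle, COX7B and COX7C lower, and 29 of 45 member probes were below 0. Of all 17117 probes 9280 were called in that comparison, only 1281 of them higher in muscle. Relative to the median of all probes, which a shift of whole arrays cannot alter, the median member stood 1.06 higher in muscle.

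**Figure D1:**
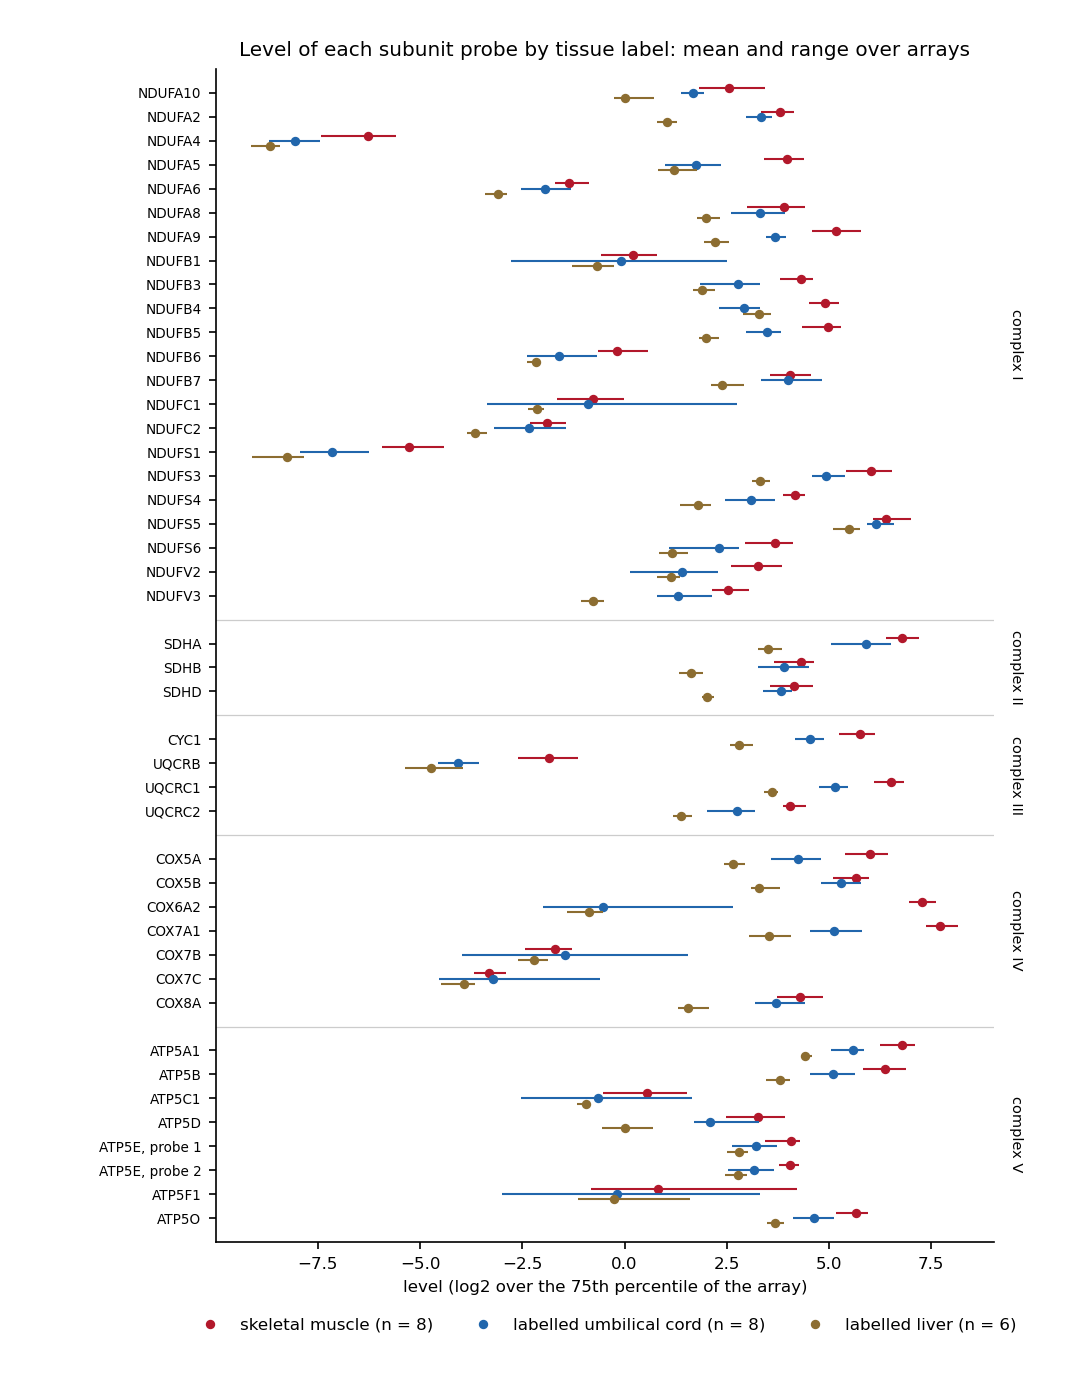
Level of 44 of the 45 probes on the log2 scale relative to the 75th percentile of the array, by complex. Points are means and lines the range over the 8 arrays of skeletal muscle (red), the 8 labelled umbilical cord (blue) and the 6 labelled liver (brown). At 42 of all 45 probes the means follow the order muscle, umbilical cord, liver, and the widest lines are those of a few probes under umbilical cord. With spike-in scaling 29 of 45 probes were lower in muscle than under umbilical cord.

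Within complex I, all 23 subunits were higher in muscle than on the arrays labelled liver, by 0.88 to 3.31 on the log2 scale. NDUFV3 (NM_021075), an accessory subunit, had the largest of these differences. NDUFA2 (NM_002488), an accessory subunit of the matrix arm, was 3.79 ± 0.26 (SD, n = 8) in muscle, 3.33 ± 0.21 (SD, n = 8) on the arrays labelled umbilical cord and 1.03 ± 0.18 (SD, n = 6) on those labelled liver. It was thus near the muscle level under the label umbilical cord, with a difference of 0.46 (standard error, SE, 0.13, adjusted p = 0.00447 from limma) that was -0.83 with spike-in scaling. NDUFA5 (NM_005000) divided the labels the other way, at 3.97 ± 0.34 (SD, n = 8) in muscle, 1.76 ± 0.54 (SD, n = 8) under umbilical cord and 1.21 ± 0.38 (SD, n = 6) under liver. With spike-in scaling its step between muscle and umbilical cord was 0.91 (adjusted p = 0.162 from limma). That between umbilical cord and liver was 1.12 (adjusted p = 0.137 from limma), and neither was called. Of the 23 complex I subunits 13 that were higher in muscle than under umbilical cord were lower on that scale. NDUFB4 (NM_004547) alone among the members was called lower on the arrays labelled umbilical cord than on those labelled liver, by a difference of -0.38 (SE 0.16, adjusted p = 0.0395 from limma), which was 0.19 with spike-in scaling and lost the call with median scaling, with no filter on dim probes and without single arrays of either label (without liver LBW replicate 2 it was -0.30, adjusted p = 0.122). NDUFB7 (NM_004146) had the smallest difference of the complex between muscle and umbilical cord, 0.06 (SE 0.19, adjusted p = 0.815 from limma). NDUFS1, a core subunit that holds several iron-sulphur clusters, was well above background on no array labelled liver, and it was at least 4.13-fold higher in muscle (adjusted p = 1.25e-09 from limma). For NDUFA4, now counted by many with complex IV, the bound was at least 2.05-fold (adjusted p = 4.72e-08 from limma).

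By the median of its subunits, complex II had the smallest gap of the complexes between muscle and umbilical cord, 0.41 (0.32 to 0.87 for its 3 subunits). Its median gap between umbilical cord and liver was the widest, 2.29 (1.82 to 2.40). Single subunits of complexes I and IV had smaller gaps between muscle and umbilical cord, such as NDUFB7 at 0.06. SDHA (NM_004168), the flavoprotein that oxidises succinate, was 6.78 ± 0.26 (SD, n = 8) in muscle, 5.91 ± 0.48 (SD, n = 8) under the label umbilical cord and 3.51 ± 0.19 (SD, n = 6) under liver. SDHB (NM_003000), the iron-sulphur subunit, was 4.31 ± 0.29, 3.90 ± 0.39 and 1.61 ± 0.22 in the same order. For SDHD (NM_003002), a membrane anchor, the levels were 4.15 ± 0.32, 3.83 ± 0.29 and 2.01 ± 0.10. The muscle and umbilical cord levels of SDHD did not differ at the threshold (difference 0.32, standard error 0.14, adjusted p = 0.0512 from limma), and for all 3 subunits the single arrays of these labels overlapped. With spike-in scaling all 3 differences between muscle and umbilical cord were below 0, at -0.42 for SDHA, -0.88 for SDHB and -0.98 for SDHD, and 0 of them were called.

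All 4 measured complex III subunits were called in each of the 3 label comparisons. UQCRC1 (NM_003365), a core protein, was 6.504 ± 0.24 (SD, n = 8) in muscle, 5.15 ± 0.21 (SD, n = 8) under umbilical cord and 3.61 ± 0.14 (SD, n = 6) under liver. CYC1 (NM_001916), the cytochrome that hands electrons to cytochrome c, was 5.76 ± 0.31, 4.53 ± 0.22 and 2.80 ± 0.24, and with spike-in scaling its muscle minus umbilical cord difference was -0.063. UQCRC2 (NM_003366), the other core protein, was 4.06 ± 0.19, 2.74 ± 0.42 and 1.37 ± 0.18. UQCRB (NM_006294), which binds ubiquinone, stood out for its step between muscle and umbilical cord of 2.23 (SE 0.19, adjusted p = 1.55e-09 from limma), with a smaller one of 0.67 between umbilical cord and liver (SE 0.20, adjusted p = 0.0065 from limma). With spike-in scaling the first step was 0.93 (SE 0.58, adjusted p = 0.154 from limma) and the second 1.24 (SE 0.62, adjusted p = 0.0968 from limma). The second was then the larger, but neither was called.

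Complex IV held both the largest and the smallest difference between muscle and the label liver. COX6A2 (NM_005205), the isoform of heart and skeletal muscle, lay between 6.95 and 7.61 on all 8 muscle arrays. On the arrays labelled liver it lay between -1.42 and -0.53, and on those labelled umbilical cord between -2.01 and 2.66. The muscle level was higher by 8.14 than under liver (SE 0.46, 282-fold, adjusted p = 5.72e-12 from limma) and by 7.79 than under umbilical cord (SE 0.43, 221-fold, adjusted p = 1.74e-12 from limma). The single high value under umbilical cord, 2.66, was that of ABW replicate 3, while the other 7 arrays of the label reached 0.12. The 7 striated muscle genes on that array and the others of its label had summed levels of 3.05 to 7.14, and their part in this value was not tested. COX7A1 (NM_001864), the other muscle isoform, was 7.71 ± 0.26 (SD, n = 8) in muscle, 5.12 ± 0.41 (SD, n = 8) under umbilical cord and 3.52 ± 0.38 (SD, n = 6) under liver, so it was well measured outside muscle as well. COX5A (NM_004255) followed with 5.99 ± 0.30, 4.25 ± 0.41 and 2.66 ± 0.19. At the other end, COX7B (NM_001866) and COX7C (NM_001867), small accessory subunits, were not called between muscle and liver, COX7B with a difference of 0.52 (SE 0.27, adjusted p = 0.0945 from limma) and COX7C with one of 0.62 (SE 0.34, adjusted p = 0.115 from limma). With spike-in scaling these differences were -0.21 and -0.11.

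**Figure D2:**
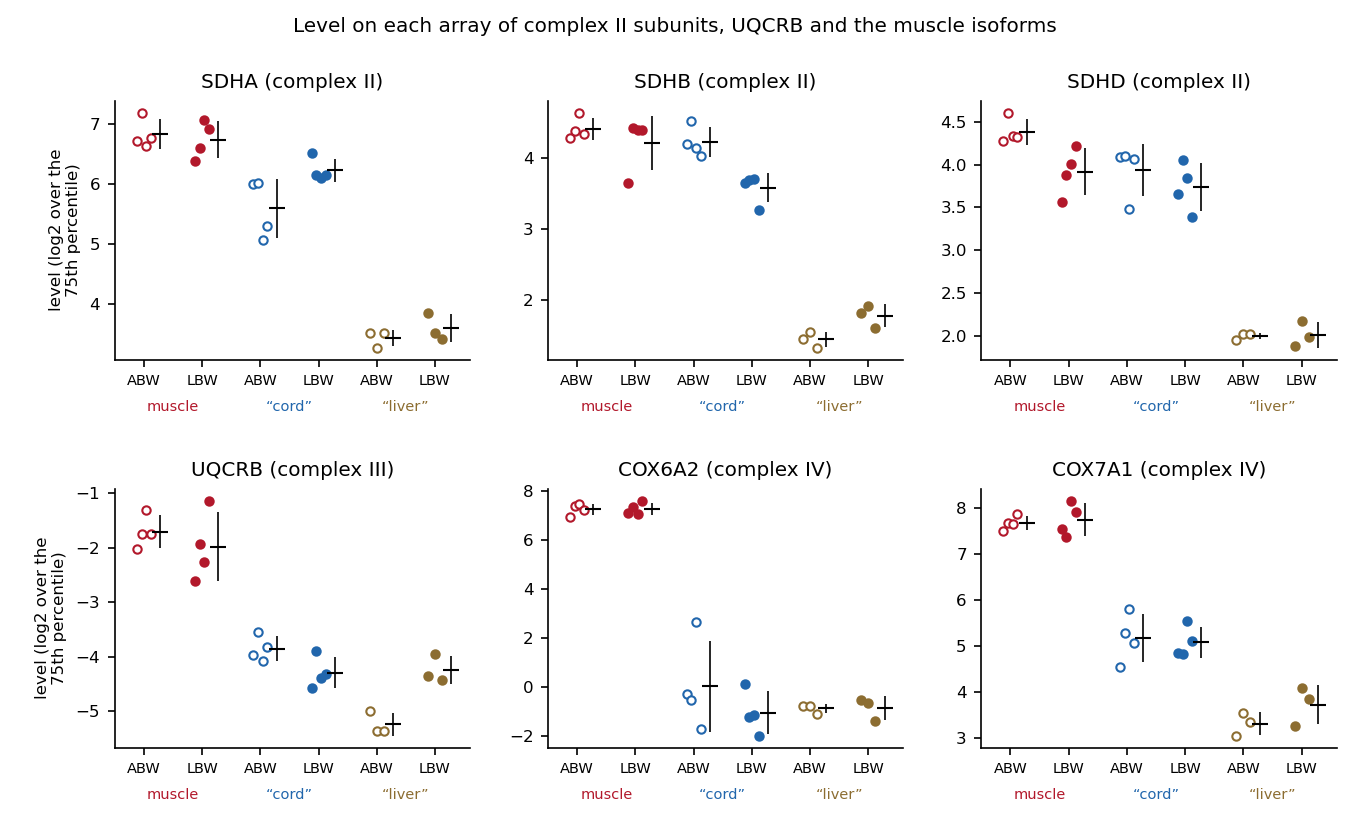
Level on each array, on the log2 scale relative to the 75th percentile, of the 3 complex II subunits, UQCRB, COX6A2 and COX7A1. Open points are ABW arrays and filled points LBW arrays, and the cross beside each group is its mean with 1 SD (n = 4 in muscle and umbilical cord, n = 3 in liver, labels as deposited). COX6A2 is at 6.95 or above on every muscle array and at 2.66 or below elsewhere, and SDHA is higher on every LBW than on every ABW array labelled umbilical cord.

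In complex V the difference between muscle and the label liver ran from 1.08 to 3.25. It was largest for ATP5D (NM_001687), the delta subunit of the central stalk, with 3.27 ± 0.49 (SD, n = 8) in muscle, 2.10 ± 0.52 (SD, n = 8) under umbilical cord and 0.02 ± 0.43 (SD, n = 6) under liver. The head subunits ATP5A1 (NM_004046) and ATP5B (NM_001686) differed by 2.38 and 2.57 between muscle and liver, and ATP5O (NM_001697) of the peripheral stalk by 1.98. Between muscle and umbilical cord all 8 probes of the complex were higher in muscle, and with spike-in scaling all 8 were below 0, from -0.03 at ATP5B to -0.43 at both ATP5E probes. The pair of ATP5E probes gave 1.27 and 1.26. ATP5F1 (NM_001688), the b subunit of the peripheral stalk, was called in none of the 3 label comparisons, and single arrays stood far from the rest. In muscle it was 0.13, 4.21, 0.38 and 0.36 on the ABW arrays and -0.83, 2.69, -0.24 and -0.07 on the LBW arrays. Under the label liver it was 1.59, -1.13 and -0.92 in ABW and 0.73, -0.97 and -0.85 in LBW. In each of these groups 1 array thus stood well above the others.

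Other genes of mitochondrial energy metabolism were read on the same scale. Of 12 genes of the citric acid cycle and pyruvate dehydrogenase, 12 were called higher in muscle than under the label liver, with a median difference of 2.57, and 9 were higher under umbilical cord than under liver. Of all probes 37.1% were called higher in muscle than under liver, and 35.6% higher under umbilical cord than under liver. With spike-in scaling the differences of these genes shift as those of the members do. SUCLG2 was the 1 of them that was lower in muscle than under umbilical cord. Of 9 assembly factors 7 were called higher in muscle than under liver, with a median difference of 1.25. Of 6 electron carriers and transporters, cytochrome c (CYCS) and the electron transfer flavoproteins among them, 6 were. PPARGC1A, a coactivator of mitochondrial gene expression, was 0.66 to 3.29 in muscle and 0.88 to 2.72 under umbilical cord, but -8.82 to -5.39 on the arrays labelled liver, where it was well above background on 3 of 6.

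The comparison of LBW with ABW within a label addresses which genes differ with birth weight in the normal range. On the arrays labelled umbilical cord 5 members were called at an adjusted p under 0.05, all lower in LBW, and they belonged to complexes I, IV and V. All probes gave 0.625% called, with 0.602% lower and 0.0234% higher. The 5 were NDUFB1 (NM_004545), NDUFC1 (NM_002494), COX7B, ATP5C1 (NM_005174) and ATP5F1, and their levels were 8.22-fold to 30.0-fold lower in LBW with an exact two-sided permutation p = 0.0286 each, the smallest that 4 arrays a group allow. Of the members 14 had an unadjusted p below 0.05 (8.94% of all probes), each with a 1.5-fold difference (8.93%), and 14 were lower and 0 higher, against 5.26% and 3.66% of all probes. All LBW arrays lay below all ABW arrays at 11 member probes (3.21% of all probes) and above them at 1 (2.65%). The median difference of the members was -0.35, beside -0.01 for all probes, and 37 of 45 were below 0 and 8 above, as were 50.9% and 49.1% of all probes. With spike-in scaling, which moved the median of all probes to -0.44, that of the members was -0.78, and the 5 kept their direction, but ATP5F1 alone was called. On that scale 2 of all 17117 probes were called. The standard error of each of the 5 was then 1.16, against 0.33 to 0.66 before. The spike-in level itself ranged from 10.04 to 12.27 (log2) over these arrays. By the methods' t-test 0 members passed after Benjamini-Hochberg adjustment, while 12 passed unadjusted with a 1.5-fold difference. The shares of all probes under that test are not given here, so these counts cannot be set against the whole array. In skeletal muscle and under the label liver 0 members were called at an adjusted p under 0.05, as were 0% of all probes.

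**Figure D3:**
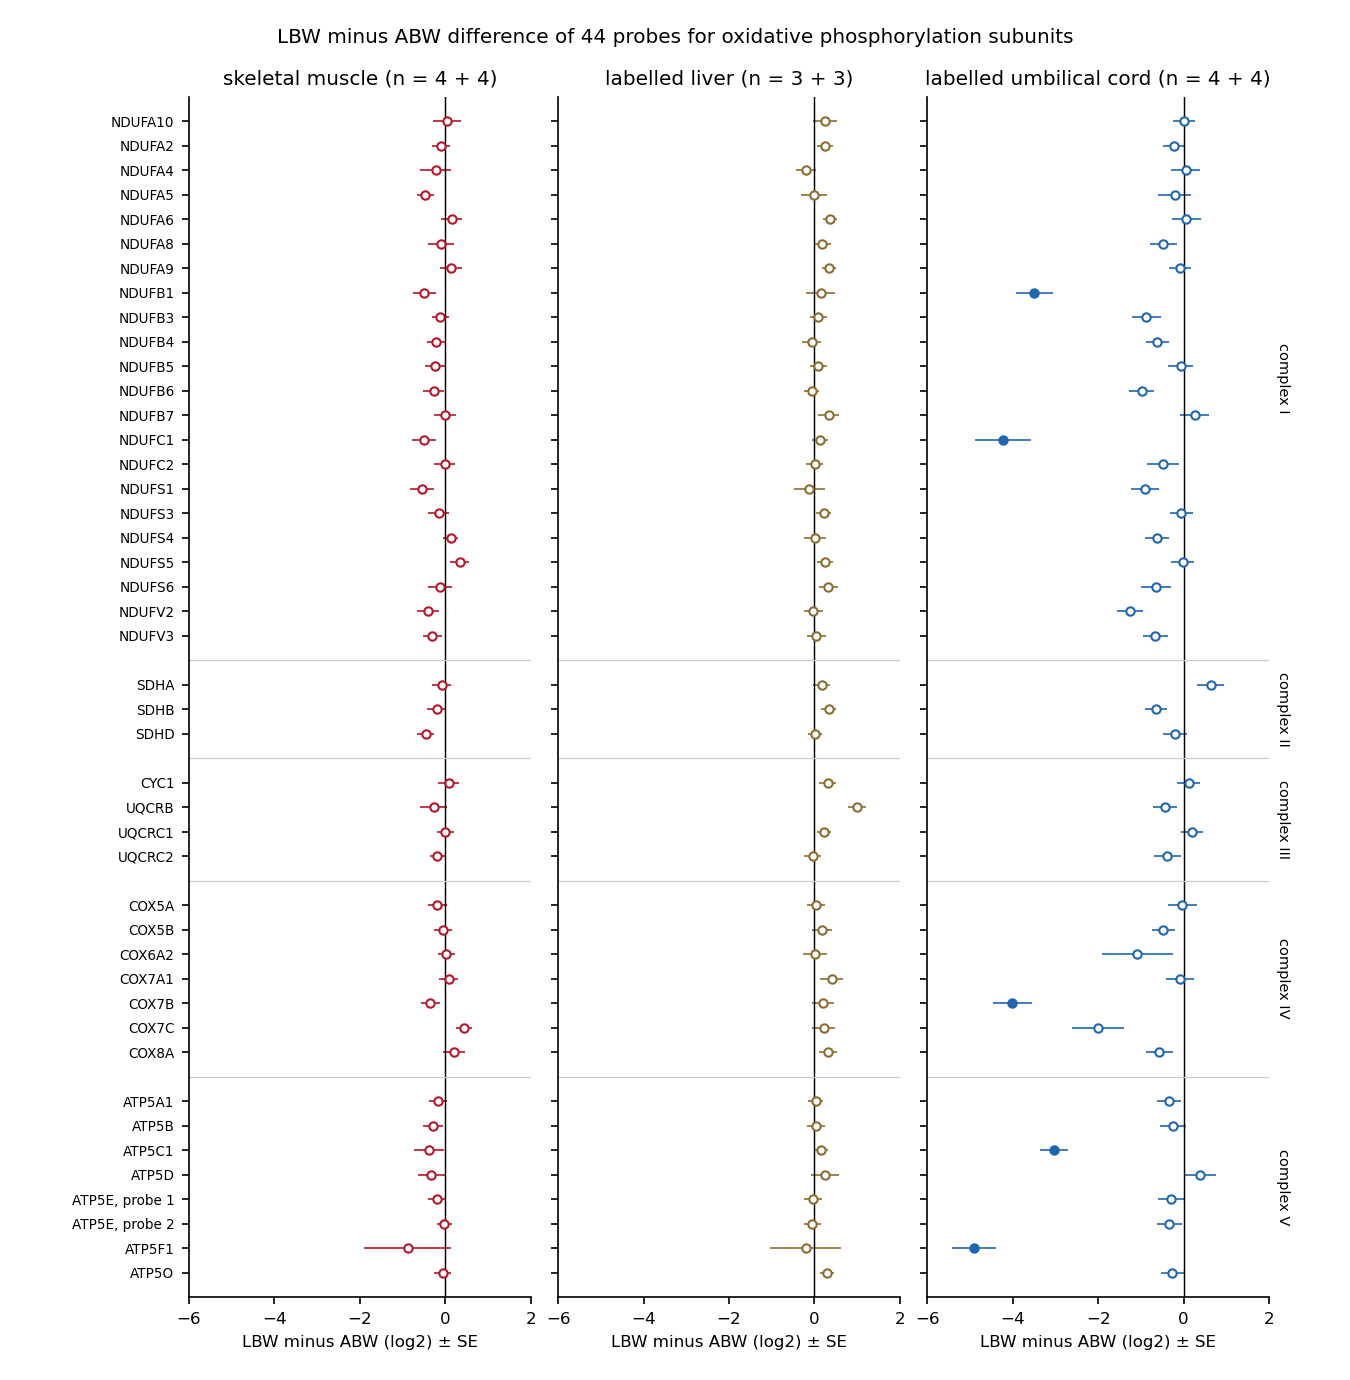
LBW minus ABW difference of 44 of the 45 probes on the log2 scale with its standard error from limma, by complex, in skeletal muscle (4 and 4 arrays), on the arrays labelled liver (3 and 3) and on those labelled umbilical cord (4 and 4). Filled points have an adjusted p under 0.05. The 5 filled points are NDUFB1, NDUFC1, COX7B, ATP5C1 and ATP5F1 under umbilical cord, at -3.04 or lower, and most other members lie within 1 of 0. With spike-in scaling 45 of 45 probes in muscle and 44 of 45 under umbilical cord were below 0.

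Both complex I subunits called under umbilical cord are accessory subunits of its membrane arm. NDUFB1 was 1.05, 1.08, 2.51 and 1.99 on the ABW arrays and -2.77, -1.41, -1.44 and -1.72 on the LBW arrays. The groups were well apart, and the difference was -3.49 (SE 0.44, 11.2-fold, adjusted p = 0.00732 from limma). NDUFC1 was -0.21, -0.03, 2.74 and 2.34 in ABW and -3.36, -3.26, -2.41 and -3.04 in LBW. Here the ABW arrays themselves fell into a lower and a higher pair, replicates 1 and 2 on slide 4 and replicates 3 and 4 on slide 6, and the difference was -4.23 (SE 0.66, 18.7-fold, adjusted p = 0.0198 from limma). Without ABW replicate 4, or without any 1 of the 4 LBW arrays, the adjusted p of NDUFC1 was 0.0573 to 0.0688 from limma.

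The other complex I subunits had smaller differences. NDUFV2 (NM_021074), a core subunit of the module that oxidises NADH, was 2.05, 1.76, 2.03 and 2.30 in ABW and 0.14, 1.06, 1.17 and 0.78 in LBW, a difference of -1.24 (SE 0.31, unadjusted p = 0.00214 and adjusted p = 0.173 from limma). NDUFB6 (NM_002493) of the membrane arm was -1.45, -1.18, -1.19 and -0.67 in ABW and -2.34, -1.77, -1.90 and -2.39 in LBW, a difference of -0.98 (SE 0.29, adjusted p = 0.321 from limma). The groups did not overlap in either, but neither passed the adjusted threshold in the comparison of these 8 arrays. Differences of -0.61 to -0.91 with an unadjusted p under 0.05 were found at NDUFB3 (NM_002491), NDUFB4, NDUFS1, NDUFS4 (NM_002495) and NDUFV3. Of these NDUFS1 cleared the background on 3 of 4 ABW arrays and 0 of 4 LBW arrays, and no fold is given for it. NDUFS3 (NM_004551) and NDUFS5 (NM_004552) were at -0.05 and -0.02, and NDUFB7 had the highest difference of the complex, 0.26 (SE 0.33, adjusted p = 0.838 from limma), which was -0.17 with spike-in scaling.

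In complex II the differences were of opposite sign. SDHA was 5.998, 6.02, 5.06 and 5.29 on the ABW arrays labelled umbilical cord and 6.51, 6.14, 6.10 and 6.15 on the LBW arrays, every LBW array the higher. The difference was 0.63 (SE 0.31, unadjusted p = 0.067 and adjusted p = 0.582 from limma, exact two-sided permutation p = 0.0286), and it was the highest of all members. Against the 2 ABW arrays of slide 4 alone it was 0.22, against those of slide 6 alone 1.05, and with spike-in scaling 0.20. SDHB was 4.20, 4.52, 4.14 and 4.02 in ABW and 3.65, 3.69, 3.71 and 3.27 in LBW, every LBW array the lower, a difference of -0.64 (SE 0.26, adjusted p = 0.533 from limma, exact two-sided permutation p = 0.0286). SDHD overlapped between the groups, with a difference of -0.20 (SE 0.28, adjusted p = 0.863 from limma).

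Complex III had no member called by either rule under umbilical cord, with differences from -0.44 at UQCRB to 0.19 at UQCRC1. In complex IV all 7 differences were below 0, from -4.01 at COX7B to -0.03 at COX5A. COX7B was -0.50, 0.01, 1.15 and 1.54 in ABW and -3.97, -3.41, -3.23 and -3.22 in LBW. The groups were well apart, and the difference was -4.01 (SE 0.46, 16.1-fold, adjusted p = 0.00707 from limma). COX7C was -3.69, -2.98, -1.57 and -0.60 in ABW and -4.53, -3.63, -4.35 and -4.33 in LBW, a difference of -2.002 (SE 0.60, adjusted p = 0.325 from limma) with 1 pair of arrays in overlap. Its ABW arrays split by slide as those of NDUFC1 did: against the pair of slide 4 the difference was -0.88 and against the pair of slide 6 it was -3.13 (adjusted p = 0.9998 and 0.0179 from limma). COX6A2 differed by -1.08 with a standard error of 0.82, the high array described above being among its ABW values. COX7A1, COX5B (NM_001862) and COX8A (NM_004074) were at -0.09, -0.47 and -0.57.

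In complex V the gamma subunit and the b subunit were called and the other differences lay between -0.35 and 0.40. ATP5C1, the gamma subunit that forms the rotating shaft of the catalytic head, was 0.43, 0.69, 1.65 and 0.75 in ABW and -1.92, -2.29, -1.90 and -2.54 in LBW, a difference of -3.04 (SE 0.33, 8.22-fold, adjusted p = 0.00707 from limma). ATP5F1 was 3.31, 0.63, 2.43 and 2.70 in ABW and -2.9998, -2.47, -2.42 and -2.68 in LBW, a difference of -4.91 (SE 0.51, 30.0-fold, adjusted p = 0.00707 from limma). The LBW arrays lay close together and the ABW arrays were spread more widely. The partners of these subunits in the same structures had small differences, ATP5A1 and ATP5B of the head -0.35 and -0.24, the ATP5E probes -0.29 and -0.33, and ATP5O of the stalk -0.26. ATP5D had the highest value of the complex, 0.40 (SE 0.36, adjusted p = 0.759 from limma), which was -0.04 with spike-in scaling.

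**Figure D4:**
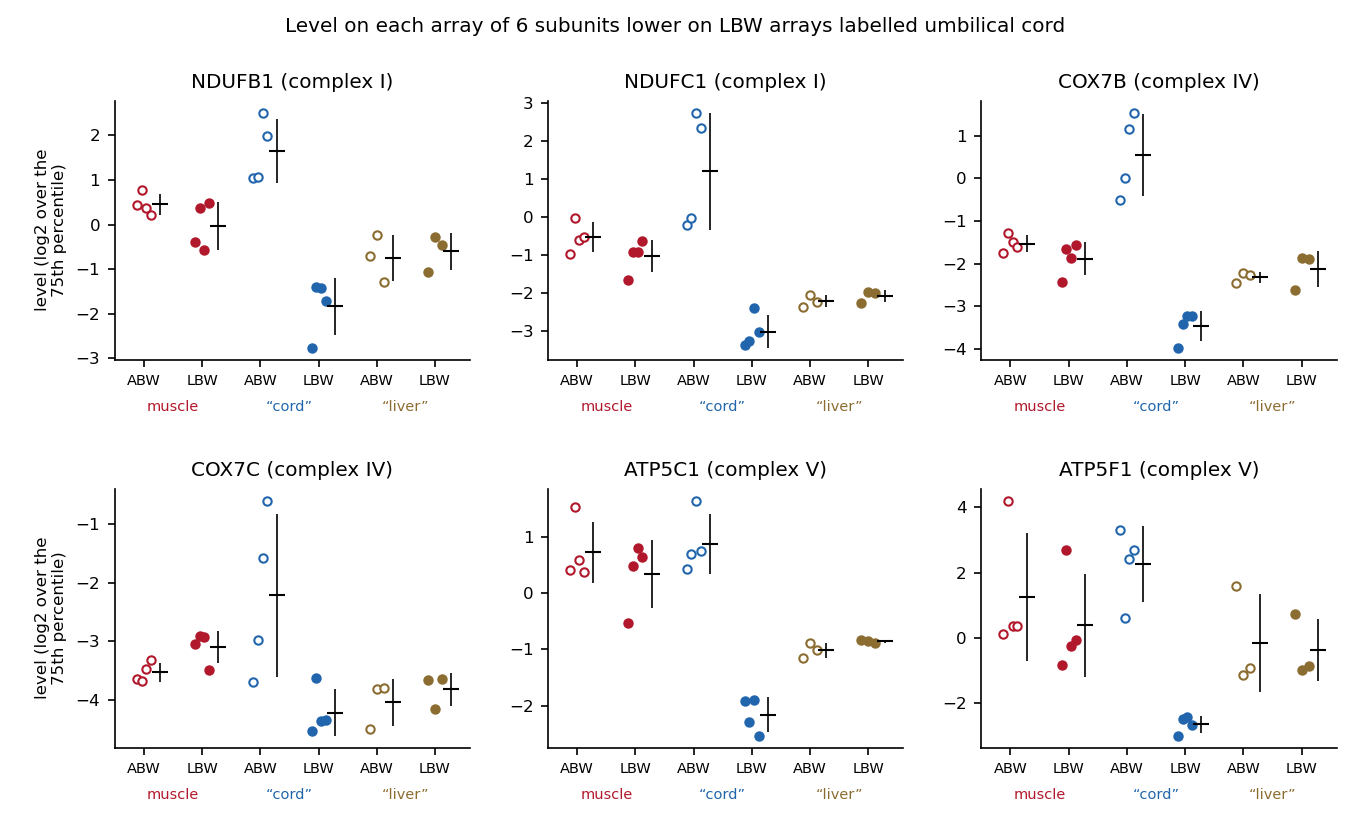
Level on each array, on the log2 scale relative to the 75th percentile, of NDUFB1, NDUFC1, COX7B, COX7C, ATP5C1 and ATP5F1. Open points are ABW arrays and filled points LBW arrays, in order of replicate number from left to right, and the cross beside each group is its mean with 1 SD (n = 4 in muscle and umbilical cord, n = 3 in liver, labels as deposited). The LBW arrays labelled umbilical cord lie below all ABW arrays of that label in 5 of the 6 panels, and 1 array of each muscle and liver group stands apart at ATP5F1.

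The LBW arrays labelled umbilical cord were all on slide 5, and the ABW arrays on slides 4 and 6. The slide 6 arrays, ABW replicates 3 and 4, were the only ones of the 22 extracted with the later software version. Their negative controls had a net signal of 17.1 and 16.7, against 29.2 to 35.3 on the other arrays. They had 16914 and 17887 probes well above background, against 14594 to 16156 elsewhere. The part of software and background signal in the calls was not tested. Against the 2 ABW arrays of slide 4 alone the 5 called members had differences of -2.72 to -4.61 with adjusted p of 0.0557 to 0.0848 from limma, so 0 were called (8 members at the unadjusted p with 1.5-fold). Against the 2 of slide 6 alone the differences were -3.36 to -5.56, and 6 members were called, COX7C with them. With slide as a random block 5 were called. No slide held both birth weight groups of this label, so such a block cannot tell the slide apart from birth weight here. The shares of all probes called in these slide fits are not given here. Their member counts can thus not be read as particular to the subunits. The hepatocyte genes CP, F13B and CFHR2 were lower on the same LBW arrays, by -3.72, -3.81 and -3.50 (adjusted p = 0.0091, 0.0071 and 0.0075 from limma), and 0 of the other 7 hepatocyte genes were called. The study itself lists CP, F13B and CFHR2 among its most changed cord genes. The marker list was chosen with earlier results of these data known, so their calls are no independent result. Of the 10 hepatocyte genes 7 were below 0 and 3 above, with a median difference of -0.51. The summed level of all 10 was 9.15 to 10.15 in ABW and 9.59 to 10.07 in LBW, and that of 7 stromal genes 3.78 to 3.85 and 3.24 to 4.66. The 6 erythroid probes were all below 0 (median difference -0.78, 0 called), with summed levels of 5.09 to 7.21 in ABW and 3.90 to 6.57 in LBW. The part of cell makeup in the subunit differences was not tested.

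In skeletal muscle the subunits differed little between LBW and ABW. At an unadjusted p under 0.05 limma gave 3 members, against 14.7% of all probes, and 0 of these reached 1.5-fold, against 12.2% of all probes (2.5% lower and 9.7% higher). By the methods' t-test 0 members passed an adjusted p of 0.05, and the share of all probes under that test is not given here. The median difference of the members was -0.18, where that of all probes was 0.07, and 34 of 45 member probes were below 0 and 11 above, against 42.7% and 57.3% of all probes. The arrays did not overlap at 2 members, both lower in LBW (1.92% of all probes), and at 0 higher ones (8.61%). Without LBW replicate 1 the median was -0.0026. With spike-in scaling, which moved the median of all probes to -0.39, it was -0.63, and 17 members then passed the unadjusted rule with 1.5-fold. Of all 17117 probes 2611 passed that rule on this scale, 220 of them higher in LBW. Relative to the median of all probes, which this scaling cannot alter, the members' median was -0.24.

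NDUFA5 was 4.19, 4.20, 4.38 and 4.03 on the muscle ABW arrays and 3.52, 3.41, 4.02 and 3.96 on the LBW arrays, with no overlap. Its difference was -0.47 (SE 0.20, 1.39-fold, adjusted p = 0.317 from limma, exact two-sided permutation p = 0.0286). SDHD was 4.27, 4.60, 4.33 and 4.32 in ABW and 3.57, 3.88, 4.01 and 4.22 in LBW, also without overlap, a difference of -0.46 (SE 0.19, adjusted p = 0.309 from limma, exact two-sided permutation p = 0.0286). COX7C went the other way, by 0.44 (SE 0.19, adjusted p = 0.339 from limma), and by -0.02 with spike-in scaling. The 7 stromal genes were all lower in LBW muscle (median difference -0.93), with summed levels of 5.74 to 6.64 in ABW and 5.12 to 6.17 in LBW. The 6 erythroid probes were all higher (median 0.81), with summed levels of 1.86 to 5.45 and 4.14 to 5.93. The part of either in the subunit differences was not tested. The differences of the muscle isoforms lay within the spread, COX6A2 at 0.02 (SE 0.20, adjusted p = 0.969 from limma) and COX7A1 at 0.07 (SE 0.22, adjusted p = 0.91 from limma). All 8 complex V probes were below 0, from -0.03 at the second ATP5E probe to -0.88 at ATP5F1, which had a standard error of 1.03. The highest difference in complex I was 0.34 at NDUFS5 (SE 0.22, adjusted p = 0.529 from limma) and the lowest -0.54 at NDUFS1 (SE 0.28, adjusted p = 0.412 from limma). In complex III the differences lay between -0.28 at UQCRB and 0.07 at CYC1.

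On the arrays labelled liver 1 member passed an unadjusted p under 0.05, and it passed with 1.5-fold, beside 5.99% and 4.71% of all probes (1.69% lower and 3.02% higher). This was UQCRB, at -5.00, -5.36 and -5.36 in ABW and -4.35, -3.96 and -4.43 in LBW. Every LBW array was the higher, and the difference was 0.99 (SE 0.21, 1.99-fold, adjusted p = 0.684 from limma, exact two-sided permutation p = 0.1, the smallest that 3 arrays a group allow). The median difference of the members was 0.16 and that of all probes 0.06, and 35 of 45 member probes were above 0, as were 58.5% of all probes. LBW arrays all lay above ABW arrays at 8 member probes, against 8.82% of all probes, among them NDUFA6 (NM_002490) at 0.37, SDHB at 0.34 and ATP5O at 0.29. Complex IV subunits were all above 0, from 0.02 at COX6A2 to 0.41 at COX7A1. The lowest differences were -0.21 at ATP5F1 and -0.20 at NDUFA4, and NDUFA4 was well above background on no array of this label. Slide 3 held the ABW arrays and LBW replicate 1, and within it the median difference of the members was 0.0132.

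The effect of birth weight was tested for a difference between the labels. At an adjusted p under 0.05 of the interaction term in a limma fit of all 22 arrays 4 members were called, against 1.01% of all probes. They were NDUFB1 (adjusted p = 0.0025 from limma), NDUFC1 (0.00507), COX7B (0.000646) and ATP5C1 (0.00164). Their effect under umbilical cord was lower than in muscle by -2.66 to -3.73 and lower than under liver by -3.20 to -4.36. ATP5F1, with the largest difference under umbilical cord, did not pass (adjusted p = 0.146 from limma). For the same 4 members the muscle effect minus the liver effect was -0.54 to -0.64 (adjusted p = 0.99996 from limma). With spike-in scaling 0 members were called for the interaction. Averaged over the 3 labels, 4 members were called, all lower in LBW, against 0.888% of all probes called and 0.637% lower. They were again NDUFB1, NDUFC1, COX7B and ATP5C1, with mean effects of -1.28, -1.53, -1.39 and -1.09. Within the labels their differences were -0.35 to -0.50 in muscle and 0.13 to 0.19 under liver, not called in either, so the mean rests on umbilical cord. With spike-in scaling these 4 were not called for the mean effect, and ATP5F1 alone was, at -2.24 (adjusted p = 0.0205 from limma).

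Genes that work beside the 5 complexes were set against birth weight in the same fits. Under the label umbilical cord 1 of 6 electron carriers and transporters was called, ETFDH, which passes electrons from fatty acid and amino acid oxidation to ubiquinone. Its level was 1.68 ± 0.46 on the 4 ABW arrays and -0.98 ± 0.76 on the 4 LBW arrays (means with SD), a difference of -2.66 (SE 0.41, adjusted p = 0.0196 from limma). ETFA, its electron donor, differed by -3.35 without passing (SE 0.87, adjusted p = 0.215 from limma), and ETFB by 0.17. Of 12 genes of the citric acid cycle and pyruvate dehydrogenase 0 were called under umbilical cord, with 6 differences below 0 and 6 above and a median of -0.01. Of 9 assembly factors 0 were called, with a median of -0.10, and of 5 regulators of mitochondrial biogenesis 0, with a median of 0.08. At an unadjusted p below 0.05 limma had 1 gene of these citric acid cycle genes, 0 of the assembly factors and 1 of the regulators. Of the 6 electron carriers and transporters it had 3, against 8.94% of all probes. These 3 were all lower in LBW with a 1.5-fold difference, and the median of the 6 was -0.76, with 4 below 0 and 2 above. The regulator was TFAM, which packages and transcribes mitochondrial DNA and had a difference of -3.56 (SE 1.13, unadjusted p = 0.0102 and adjusted p = 0.369 from limma). In muscle and under liver limma called 0 genes of these 4 lists at an adjusted p under 0.05. At an unadjusted p below it with a 1.5-fold difference there were 1 in muscle and 2 under liver, against 12.2% and 4.71% of all probes.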

How the data were processed

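Total RNA of 22 samples was labelled with Cy3 and hybridised to single-colour Agilent rhesus macaque arrays. Per the file headers the intensities were extracted with Agilent Feature Extraction 10.1.1.1 or, on slide 6, 10.5.1.1, and the deposited processed signal is background-subtracted. The authors also deposited log2 values scaled to the 75th percentile of each array with a baseline taken off each probe (GeneSpring), used here only as an alternative. Here 2 spots per probe were averaged after outlier flags were left out, log2 intensities were scaled to the 75th percentile of each array, and 17117 of 20217 probes were kept, those clearly over background on 75% or more of any group's arrays. Differences were tested with limma 3.58.1 (R 4.3.3, statmod 1.5.0), LBW against ABW within a label and labels in 1 fit of 6 groups, with Benjamini-Hochberg adjustment over all kept probes. Single values were tested with exact two-sided permutation tests (Python 3.11.15, scipy 1.17.1, numpy 2.4.6, pandas 2.3.3, and matplotlib 3.10.9 for the plots). The scripts were tested on simulated data. The number of arrays limits the precision, and no probe was saturated. Alternatives were normexp background correction (offset 50), median, quantile and spike-in scaling (7 spike-in probes), other filters, a floor on dim signals, array weights, slide or replicate number as a block, single slides, averages per identifier, the methods' t-test and leaving out each array.

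Named members were those called in any label, the 10 largest differences per label at an unadjusted p under 0.05, the highest and lowest of each complex and label, complex II, the muscle isoforms and the 3 largest differences each way between labels. Others are named where a comparison within a complex needed them, after their values were seen. The naming rule prints the identifier where no table pairs it with a symbol. In a departure from it, the generally known symbol is printed beside the identifier. Over all lists 20 pairs could be checked against the study, and 20 were the same. The members and the pathway and marker lists were chosen with earlier results of these data known. The values of 1 member and 1 pathway gene are not reported here singly, but both are in the counts and medians.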

Additional observations from a re-analysis of the deposited data

Results flagged for a closer look

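Of 116 groups of 4 arrays tested for a single distant array 9 had one, and chance gives about 1 in 20. Skeletal muscle ABW replicate 2 was high for ATP5F1 at 4.21 (the other 3 at 0.13 to 0.38), ATP5O at 5.96 (5.56 to 5.62), NDUFB3 at 4.62 (4.25 to 4.30) and UQCRC1 at 6.85 (6.36 to 6.44). Skeletal muscle LBW replicate 1 was low for ATP5O at 5.17 (5.72 to 5.81) and SDHB at 3.65 (4.39 to 4.42). On the arrays labelled umbilical cord, LBW replicate 1 was high for SDHA at 6.51 (6.10 to 6.15), LBW replicate 4 low for SDHB at 3.27 (3.65 to 3.71) and ABW replicate 3 low for SDHD at 3.48 (4.06 to 4.10).

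The effect of birth weight differed between the labels by the interaction term of limma for NDUFB1 (adjusted p = 0.0025), NDUFC1 (adjusted p = 0.00507), COX7B (adjusted p = 0.000646) and ATP5C1 (adjusted p = 0.00164), each lower in LBW under the label umbilical cord.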

How the results depend on the processing

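The 5 members called under the label umbilical cord kept their direction under all 24 alternatives run. Calls were lost under 3 alternatives each for NDUFB1, COX7B and ATP5C1, 2 for ATP5F1 and 9 for NDUFC1. The count of 5 was 1 with spike-in scaling, 0 with the methods' t-test, 0 against the ABW arrays of slide 4 alone, 8 in 1 fit of the 6 groups, and 4 to 5 without single arrays. Apart from spike-in scaling, the shares of all probes under these alternatives are not given here. The 14 with 1.5-fold at the unadjusted p were 6 with spike-in scaling (233 of all 17117 probes), 8 with slide 4 alone and 9 to 14 without single arrays (9 without ABW replicate 2, LBW replicate 2 or LBW replicate 4). With spike-in scaling the median difference was -0.78 under umbilical cord, -0.63 in muscle and 0.31 under liver, 17 muscle and 0 liver members passed with 1.5-fold, 27 and 4 members were called for muscle against liver and against umbilical cord, 0 for the interaction and 1 for the mean effect. Of all 17117 probes 5652 and 9280 were called in the same label comparisons on that scale. Without single arrays the muscle median was -0.23 to -0.0026 and its count at the unadjusted p with 1.5-fold 0 to 1, and 1 with quantile normalization. The liver count was 0 with normexp, 2 with slide as a fixed block, 2 within slide 3 and 1 to 2 without single arrays (2 without LBW replicate 1), and the median 0.0132 both with the slide block and within slide 3.

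Muscle minus umbilical cord turned with spike-in scaling at 27 of the 45 probes. Among the members named by rule these were, of those called, ATP5C1 (-0.12), ATP5D (-0.13), ATP5O (-0.27), CYC1 (-0.063), NDUFA2 (-0.83), NDUFA6 (-0.71), SDHA (-0.42) and SDHB (-0.88), and, of those not called, ATP5F1 (-0.28), NDUFB1 (-0.99), NDUFB7 (-1.24), NDUFC1 (-1.17), NDUFS5 (-1.05) and SDHD (-0.98). Umbilical cord minus liver turned for NDUFB4 with spike-in scaling (0.19) and for NDUFS5 with quantile normalization (-0.19). Muscle minus liver turned with spike-in scaling for COX7B (-0.21) and COX7C (-0.11), which were not called on either scale. For these changes the cause was not tested. Of the values of these members under alternatives 4419 kept direction and side of the threshold, 88 lost the call, 28 gained it, 10 turned from a call, and 170 turned without a call, 27 of them with spike-in scaling.

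Within a label the replicate numbers were not taken to pair ABW with LBW samples. Samples of the same number correlated between ABW and LBW by -0.22 to 0.30 under umbilical cord, -0.17 to 0.13 in muscle and 0.02 to 0.17 under liver. Whether a number marks the same animal across labels was not tested. With a replicate block 5 members were called under umbilical cord, and 1 muscle member passed the unadjusted p with 1.5-fold. Dim signal limits NDUFA4 and NDUFS1, well above background on 6 and 10 of 22 arrays.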

Other observations

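The 6 members with an LBW minus ABW difference of -1.5 or lower under the label umbilical cord (ATP5C1, ATP5F1, COX7B, COX7C, NDUFB1 and NDUFC1) had muscle minus liver differences of 0.52 to 1.48, with a median of 0.98. The other 38 members had differences of 0.91 to 8.14, with a median of 2.63. This was noticed in the data and is given as a description without a test. The ABW arrays labelled umbilical cord enter neither side of the muscle minus liver difference.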
